A study of Mus musculus with 6 samples.

Results

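The LIF and STAT3 signalling genes examined were 9, Lifr, Il6st, Jak1, Stat3, Socs2, Socs3, Pim1, Pim3 and Gbx2, taken by symbol from the 23889 gene symbols that every table listed. All 9 were listed for all 6 mouse RNA sequencing libraries, with Gbx2 at 0 in round sperm. Leukaemia inhibitory factor (LIF) binds the receptor chain LIFR, which pairs with the shared chain gp130, the product of Il6st. The paired chains bring together JAK kinases that phosphorylate STAT3, and the STAT3 dimer then enters the nucleus and turns on genes such as Socs3, whose product in turn blocks the receptor. In mouse embryonic stem cells this route sustains self-renewal, and LIF is often added to culture beside 2i, which inhibits MEK and GSK3.

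The haploid cells were androgenetic haploid embryonic stem cells (AG-haESCs), with 3 libraries from 3 lines, A129-2, AOS-14 and AOS-16, labelled F1 hybrid C57BL/6 X DBA/2. Their embryos had an enucleated oocyte from BDF1 females aged 8 to 10 weeks and a sperm head as the sole genome, and the lines were grown on feeder cells with 15% serum replacement and 2i and sorted as G0/G1 haploid cells. They were set against 2 libraries of ESC XX, embryonic stem cells of an Oct-GFP (C57) background kept in 15% serum, 1000 U/ml LIF and 2i and collected after feeders were removed, and against 1 library of round sperm of the same F1 hybrid strain, whose label repeats the culture and sorting text of the haploid lines. The labels name LIF for the ESC XX medium and do not name it for the AG-haESC medium. Strain, medium, feeder removal and sorting therefore differ along with the cell type between AG-haESCs and ESC XX and cannot be told apart. Each line had 1 library, and nothing in the labels says that the ESC XX libraries were separate cultures.

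Depth, estimated from the steps of low values, was lowest in A129-2, at 9.28 megafragments, and highest in AOS-14, at 19.7, so that 1 fragment of a transcript of 2000 nt was worth 0.0254 to 0.0539 FPKM (fragments per kilobase of transcript and megafragment). In AOS-14 12.7% of summed FPKM came from genes shorter than 200 nt, against 0.111% in A129-2 and 0.00983% in AOS-16. Round sperm had 6.26%, and the ESC XX libraries 0.00292% and 0.100%. The 10 pluripotency markers summed to 4184 to 5460 FPKM in AG-haESCs, 4026 to 4079 in ESC XX and 34.5 in round sperm, and the 10 spermatid markers to 2.26 to 4.51, 1.61 to 2.54 and 40634 FPKM. Among the pluripotency markers Zfp42 was at 331, 54.9 and 39.8 FPKM in A129-2, AOS-14 and AOS-16, and at 170 and 172 in ESC XX. Lin28a was at 28.6, 6.58 and 11.2 in the lines, and at 14.0 and 13.6 in ESC XX. The 8 others differed less between A129-2 and the AOS lines. The 12 feeder fibroblast markers summed to 139, 230 and 286 FPKM in A129-2, AOS-14 and AOS-16, to 1218 and 1217 in ESC XX and to 14.1 in round sperm, where 10 of the 12 stayed under 1. Fn1 alone gave 125, 130 and 170 FPKM of the sums in the lines, and 366 and 365 of those in ESC XX. Sums of Sertoli, Leydig and haematopoietic markers reached at most 13.9 FPKM in an AG-haESC library, 24.4 in ESC XX and 7.98 in round sperm. In bulk RNA, fewer cells of a type and less RNA per cell cannot be told apart.

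The promoters of Socs3, Pim3 and Gbx2 are shown because Socs3 is the feedback inhibitor closest to STAT3, and because Pim3 and Gbx2 are the members that lay farthest above and below ESC XX. The window searched was the 250 bases before a start that RefSeq annotates (GRCm38.p6, a later build than the mm9 named for these data), and the stretch of it outside the exons that GENCODE M21 annotates for the gene is printed, 5′ to 3′ on the strand of the gene. The stretches lie at chr11:117969452-117969616 (Socs3, minus strand), chr15:88861944-88862185 (Pim3, plus strand) and chr1:89931180-89931426 (Gbx2, minus strand). That of Socs3 lies inside the span that RefSeq gives the gene, chr11:117966079-117970336, so the start it precedes is not the outermost one. Capitals mark the STAT motif TTCNNNGAA, which reads the same on both strands.
Socs3: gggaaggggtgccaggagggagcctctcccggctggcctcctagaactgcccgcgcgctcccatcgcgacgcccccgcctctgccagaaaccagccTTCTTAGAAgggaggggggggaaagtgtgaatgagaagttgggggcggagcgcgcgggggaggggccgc
Pim3: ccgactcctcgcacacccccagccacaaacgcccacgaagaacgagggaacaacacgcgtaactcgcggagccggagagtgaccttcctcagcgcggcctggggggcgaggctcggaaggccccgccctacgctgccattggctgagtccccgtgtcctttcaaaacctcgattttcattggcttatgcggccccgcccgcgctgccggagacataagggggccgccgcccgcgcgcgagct
Gbx2: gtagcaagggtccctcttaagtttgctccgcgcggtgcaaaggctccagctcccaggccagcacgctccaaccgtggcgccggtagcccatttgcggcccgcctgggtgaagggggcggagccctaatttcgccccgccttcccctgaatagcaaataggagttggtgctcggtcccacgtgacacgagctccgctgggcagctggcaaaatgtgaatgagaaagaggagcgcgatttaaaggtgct
The Socs3 window held 1 match, TTCTTAGAA, with its first base 154 bases before that start. Of the 8 members with a promoter in the table Socs3 alone held the motif (Socs2 had no entry), against 8.13% of 27025 genes, and the stricter form TTCCNGGAA was in none of the 8 and in 1.09% of genes. A match is a description of the letters in this window and not a site of binding.

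Across cell types, all 9 genes were lowest in round sperm. Stat3, Jak1, Socs2, Socs3 and Pim3 were at 9.72 FPKM or more in every embryonic stem cell library and at 0.899 to 2.52 FPKM in round sperm. Between the stem cells, Pim3, Socs3, Socs2, Pim1 and Lifr stood higher in AG-haESCs and Gbx2 stood lower. Jak1 stood higher as deposited, but its ranges overlapped after rescaling to the same total until the median difference of all genes was removed. Stat3 overlapped once the libraries were brought to 1 scale, and Il6st overlapped as deposited too. The plot of FPKM by library shows the 9 genes.

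**Figure D1:**
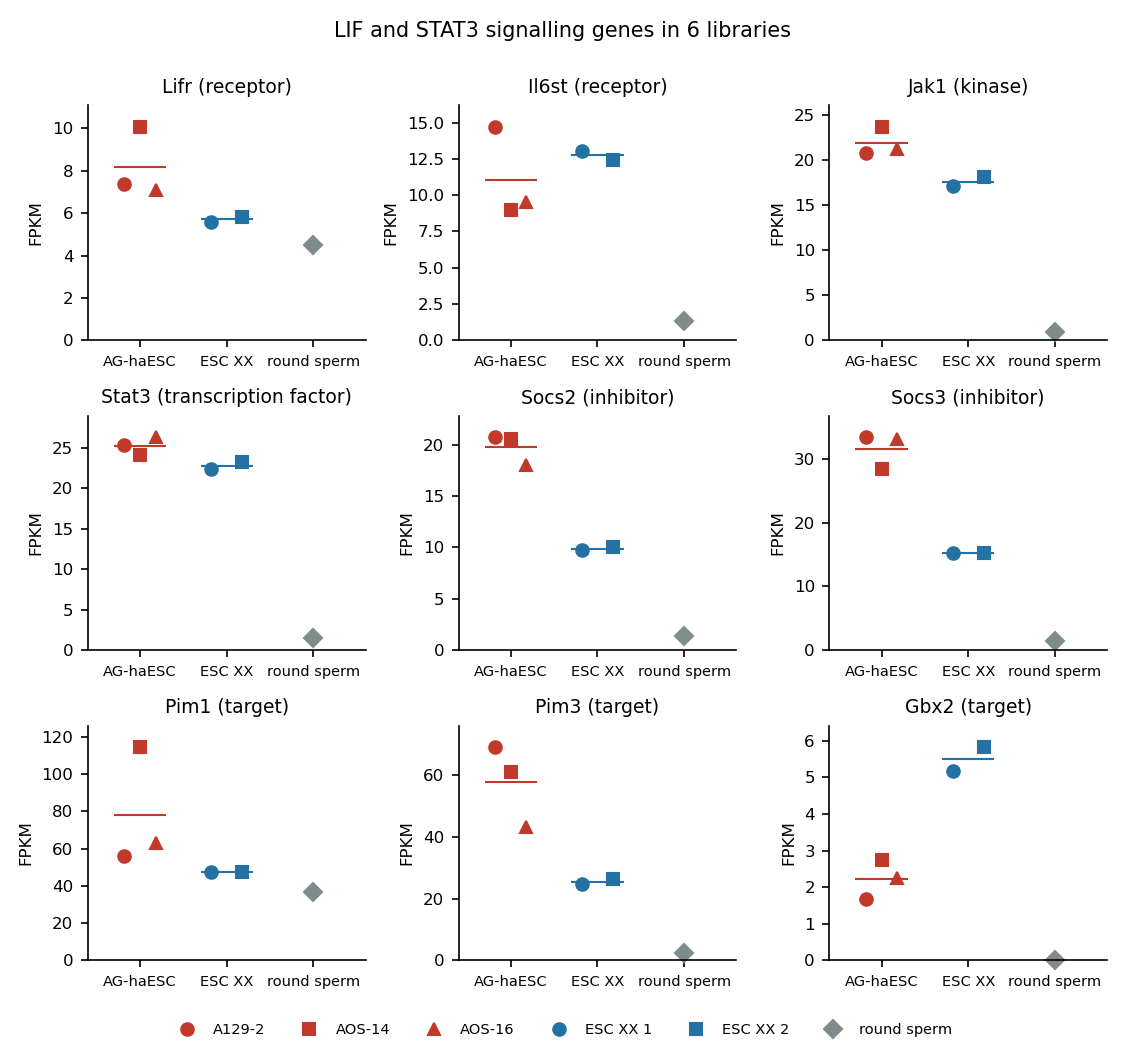
FPKM (vertical axes, linear, from 0) of the 9 genes in the 3 AG-haESC lines, the 2 ESC XX libraries and the round sperm library; each point is 1 library and each horizontal line the mean of a group with several libraries. Socs3 lies at 28.3 to 33.4 FPKM in AG-haESCs, 15.3 in both ESC XX libraries and 1.45 in round sperm, while Gbx2 is lower in all 3 AG-haESC lines than in ESC XX.

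AG-haESCs and round sperm share a table and were compared on log2(FPKM + 1) by limma, with its trend of variance on mean, over 15938 genes that reached 1 FPKM in a library, and a gene was said to rise or fall where its Benjamini-Hochberg adjusted p lay under 0.05 and its difference was at least 1 in size. The single round sperm library is taken to vary as the 3 lines do. In this comparison 61.9% of all genes tested were called, 22.8% higher and 39.1% lower, with a median of -0.49. Summed FPKM was 1239220 in round sperm, against 509359, 707325 and 546442 in A129-2, AOS-14 and AOS-16. Rescaling to the same total therefore raised the lines relative to round sperm. It moved that median to 0.49 and the share of calls that were higher to 52.2%, against 36.8% as deposited. Against ESC XX, whose tables were normalized separately, no test was run. Libraries were brought to the same total as TPM (FPKM rescaled to an equal sum in each library), the median log2(TPM + 1) difference of -0.10 over 14251 genes was removed, and a gene was set apart where the group means differed by at least 1 and the libraries of the groups did not overlap. That rule set 6.93% of genes apart as higher and 7.82% as lower in AG-haESCs. Since 1 is added before the log2 is taken, changes of low genes come out too small. FPKM values are also given across the tables, which were normalized separately.

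Of the 9 genes 7 rose in AG-haESCs relative to round sperm and none fell, against 22.8% and 39.1% of all genes tested. All 9 differences were above 0, and the median difference was 3.13 against -0.49 for all genes tested. Without Gbx2, which was listed at 0 in round sperm, the median of the other 8 was 3.24. Lifr and Pim1 did not pass the test. Against ESC XX, 1 member, Pim3, was set apart as higher and 1, Gbx2, as lower, against 6.93% and 7.82% of all genes. The median over the 9 was 0.38. With no limit on size, all 3 lines lay above both ESC XX libraries for 6 of the 9 (Lifr, Jak1, Socs2, Socs3, Pim1 and Pim3), against 24.9% of all genes, and below both for Gbx2 alone, against 25.7% of all genes.

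The receptor chains differed from each other in how they varied. Lifr, the chain that binds LIF itself, had 7.37, 10.1 and 7.09 FPKM in the lines A129-2, AOS-14 and AOS-16, against 4.50 in round sperm, and at 5.59 and 5.84 in ESC XX. Every AG-haESC library was above every other library. Against round sperm the difference was 0.72 ± 0.26 (log2 ± SE, limma, adjusted p = 0.100), which was not called. It was called once libraries were rescaled to the same total (1.68, limma adjusted p = 0.00746) or quantile normalized (1.20, limma adjusted p = 0.0361), where the all-gene medians were 0.49 and 0.42. Lifr was thus the member with the smallest gap between stem cells and round sperm on the deposited scale. Against ESC XX its difference was 0.38 ± 0.08 (log2, SD, n = 3 lines), with all 3 lines between 0.29 and 0.44.

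Il6st, which encodes gp130, the signalling chain shared by the receptors of the IL-6 family, had 14.7 FPKM in A129-2, with 8.96 and 9.53 in AOS-14 and AOS-16, against 1.33 in round sperm. ESC XX stood at 13.1 and 12.4 FPKM, below A129-2 and above both AOS lines. Il6st rose by 2.34 ± 0.36 relative to round sperm (limma, adjusted p = 0.0187), and leaving out AOS-14 or AOS-16 ended the call (limma adjusted p = 0.0668 and 0.0712). Relative to ESC XX the 3 lines differed in sign, at 0.30, -0.83 and -0.40, with a mean of -0.31 ± 0.57. It had the largest difference of any member between A129-2 and the mean of the AOS lines, 0.68 on the log2 scale after the median of all genes was removed. FPKM, a measure per length, put Il6st above Lifr in A129-2, AOS-16 and both ESC XX libraries, and below it in AOS-14 and round sperm.

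Jak1 and Stat3 lay within 17.1 to 26.3 FPKM in all stem cell libraries. Jak1, the kinase that binds gp130, was at 20.8, 23.7 and 21.2 FPKM in the AG-haESC lines, against 0.899 in round sperm, and at 17.1 and 18.1 in ESC XX. Jak1 rose by 3.59 ± 0.13 relative to round sperm (limma, adjusted p = 0.00105), a 24.3-fold ratio of FPKM. The gap to ESC XX was 0.22 ± 0.15, the smallest of the 6 members that lay above it in all lines, and in TPM the AG-haESC and ESC XX ranges overlapped before the median was removed.

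Stat3, the transcription factor of the route, was at 25.4, 24.1 and 26.3 FPKM in the haploid lines, a coefficient of variation of 4.42%, the smallest of the 9 as deposited. It was 19.6% in TPM, where Lifr (5.81%), Jak1, Gbx2 and Socs2 varied less. ESC XX held 22.3 and 23.2 FPKM and round sperm 1.58. It rose by 3.35 ± 0.10 relative to round sperm (limma, adjusted p = 0.000796). Against ESC XX the difference was 0.06 ± 0.30, with A129-2 and AOS-16 above both libraries and AOS-14 below both. In TPM, AOS-14 stood at 34.1 against 49.8 and 48.2 in the other lines. Short genes held 12.7% of the AOS-14 total, and their part in this gap was not tested.

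The feedback inhibitors Socs2 and Socs3 were about 2 times as high in AG-haESCs as in ESC XX by FPKM. Socs3, which binds gp130 and the JAK kinases and is a direct STAT3 target, was at 33.4, 28.3 and 33.0 FPKM in AG-haESCs and at 15.3 in both ESC XX libraries. Round sperm held 1.45. The groups did not overlap, and the ratio of mean FPKM to ESC XX was 2.07. On the common scale the difference from ESC XX was 0.93 ± 0.37, just inside the limit of 1, with A129-2 at 1.20, AOS-14 at 0.50 and AOS-16 at 1.08. Without AOS-14 it was 1.05 and Socs3 was set apart. Relative to round sperm Socs3 rose by 3.73 ± 0.15 (limma, adjusted p = 0.00137).

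Socs2, best known as a brake on growth hormone signalling and also induced by LIF in embryonic stem cells, was at 20.7, 20.5 and 18.1 FPKM in AG-haESCs, against 1.37 in round sperm. Both ESC XX libraries were lower, at 9.72 and 10.0 FPKM. The ratio to ESC XX was 2.01 in mean FPKM, and the difference on the common scale was 0.88 ± 0.24, with all 3 lines above both libraries (0.66 to 1.14). Socs2 rose by 3.13 ± 0.14 relative to round sperm (limma, adjusted p = 0.00155). Socs2 and Socs3 thus lay just under the size limit against ESC XX, and Pim3, at 1.05, just over it.

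**Figure D2:**
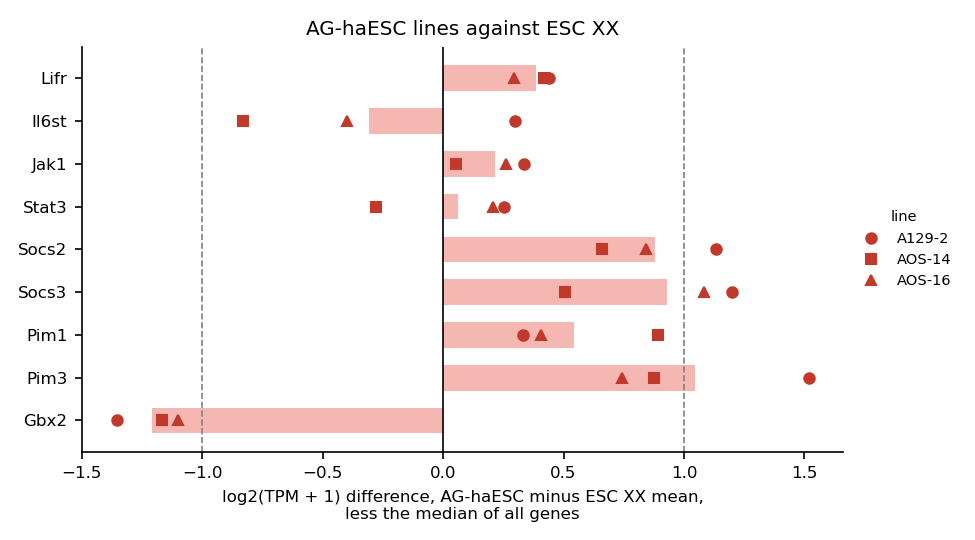
Difference of log2(TPM + 1) between AG-haESCs and the ESC XX mean, less the median of all genes (horizontal axis), for the 9 genes. Bars are means of 3 lines, points the single lines and dashed lines the limit of 1. Pim3 (1.05) and Gbx2 (-1.21) pass it, and Socs2 (0.88) and Socs3 (0.93) lie just inside.

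The target genes went different ways. Pim3, a serine and threonine kinase that promotes survival and is induced by LIF, was at 69.3, 61.3 and 43.2 FPKM in AG-haESCs and at 24.7 and 26.4 in ESC XX. Round sperm held 2.52. Its lowest line was above the higher ESC XX library, and the ratio of mean FPKM was 2.26. The difference from ESC XX was 1.05 ± 0.42 and lay close to the limit. It fell to 0.90 without A129-2, 0.999 without the first ESC XX library and 0.94 with the median difference kept, and Pim3 was then no longer set apart. Relative to round sperm Pim3 rose by 4.04 ± 0.35 (limma, adjusted p = 0.00586).

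Pim1, a kinase of the same family, was the most abundant member in FPKM in round sperm and ESC XX. It was at 55.9, 115 and 63.1 FPKM in AG-haESCs, AOS-14 being the highest. Its coefficient of variation over the lines was 41.2% in FPKM as deposited, the largest of the 9, and 22.3% in TPM, below Il6st, Pim3 and Socs3. Round sperm held 36.7 and ESC XX 47.5 and 47.3. Its difference from round sperm, 0.99 ± 0.54, was not called on the deposited scale (limma, adjusted p = 0.211). The call was made on values of equal total (2.06, limma adjusted p = 0.0189) and after quantile normalization (2.42, limma adjusted p = 0.0182). Against ESC XX the difference was 0.54 ± 0.30, with AOS-14 at 0.89 and the other lines at 0.33 and 0.41.

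Gbx2, a homeobox factor that acts downstream of STAT3 in mouse embryonic stem cells, was the scarcest member. It was at 1.68, 2.76 and 2.25 FPKM in AG-haESCs, against 5.16 and 5.84 in ESC XX, and was listed at 0 in round sperm. The groups did not overlap, and the ratio of mean FPKM to ESC XX was 0.405. On the common scale the lines lay at -1.36, -1.17 and -1.10, a mean of -1.21 ± 0.13, and Gbx2 was set apart as lower in all 11 alternatives (-1.37 to -1.05). It passed the test against round sperm (limma, adjusted p = 0.0163), where no fold is given, and did not without AOS-16 (limma, adjusted p = 0.0767). Feeder fibroblast markers were also lower in AG-haESCs than in ESC XX, 11 of 12 set apart, and their part in any of these differences was not tested.

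**Figure D3:**
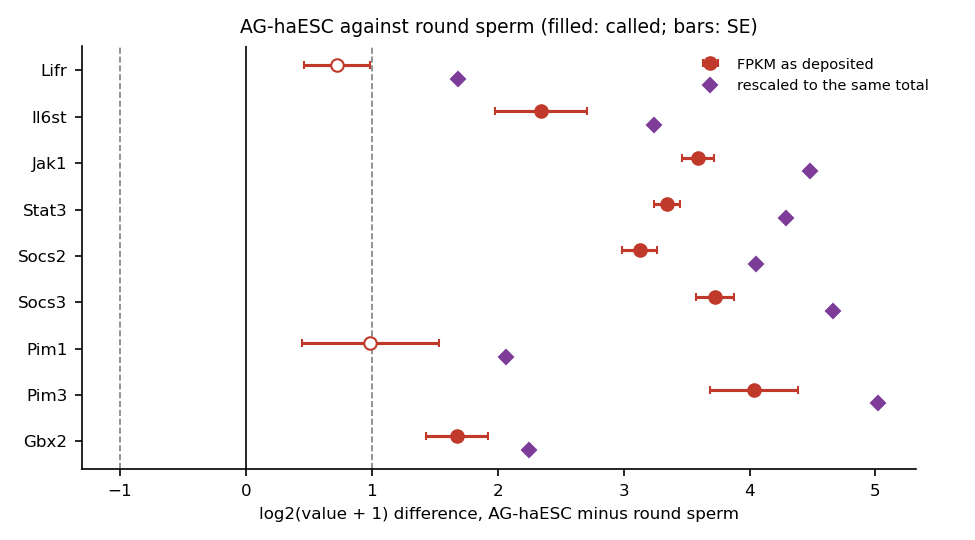
Difference between AG-haESCs and round sperm on the log2(value + 1) scale (horizontal axis) for the 9 genes. Circles with SE bars use FPKM as deposited and diamonds values rescaled to the same total; filled symbols were called. All 9 differences are positive on both scales, and Lifr and Pim1 are called on the second alone.

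Between the lines, none of the 9 was at least 1 log2 unit away in A129-2 from the mean of the AOS lines and outside both, against 10.2% of 12637 genes by that rule, 5.7% higher and 4.52% lower. Pim1 was at -0.54, Gbx2 at -0.32, Lifr at -0.12 and Jak1 at -0.04. On the other side Stat3 was at 0.07, Socs2 at 0.16, Socs3 at 0.18, Pim3 at 0.48 and Il6st at 0.68. Between AOS-14 and AOS-16, on the same log2(FPKM + 1) scale with the median removed, Pim1 was 0.78 higher in AOS-14, Pim3 0.42 and Lifr 0.38. For Socs2, Jak1 and Gbx2 the order depended on the scale. In FPKM AOS-14 was above AOS-16, at 20.5 against 18.1, 23.7 against 21.2 and 2.76 against 2.25. In TPM it was below, at 29.0 against 33.0, 33.5 against 38.8 and 3.90 against 4.12. Short genes held 12.7% of summed FPKM in AOS-14 and 0.00983% in AOS-16, which lowers the TPM of all other genes in AOS-14. Their part in this change of order was not tested. Socs3 and Pim1 kept their order, with 40.1 TPM of Socs3 in AOS-14 against 60.4 in AOS-16, and 162 TPM of Pim1 against 115. With 1 library per line these are differences between libraries and have no replicate check. Fibroblast markers also differed by line, with 9 of 11 compared set apart as lower in A129-2, and their part in the differences between lines was not tested.

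The members were set beside their paralogs in FPKM. Among JAK kinases Jak1 was the highest in every stem cell library. Jak2 was at 2.64 to 4.38 FPKM in AG-haESCs, against 0.250 in round sperm, and rose by 1.88 ± 0.30 (limma, adjusted p = 0.0200), and Tyk2 rose by 1.54 ± 0.23 (adjusted p = 0.0166). Both calls were lost in 2 of the 3 fits that left out a line. Jak3, a kinase best known from lymphocytes, was at 13.2, 6.60 and 8.99 FPKM in the lines, against 9.51 in round sperm, and missed the test (limma, adjusted p = 0.948). In round sperm Jak3 was the highest of the 4. None of these 3 kinases was set apart from ESC XX, against 14.7% of all genes.

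Stat3 was likewise the highest STAT in the stem cells, ahead of Stat2 at 6.14 to 9.64 FPKM and Stat6 at 5.06 to 8.20 in AG-haESCs. Stat4, the factor of interleukin-12 signalling, took that place in round sperm, with 389 FPKM against 1.75, 2.11 and 3.24 in the haploid lines, and fell by 6.88 in AG-haESCs (limma, adjusted p = 0.00186). Against ESC XX, at 0.626 and 0.735 FPKM, Stat4 was set apart as higher (1.19 ± 0.42), though not without AOS-16 (0.99). Stat2, Stat5b and Stat6 rose relative to round sperm by 2.48, 2.10 and 2.47 (limma, adjusted p = 0.0135, 0.0325 and 0.0119). Each call was lost when a line was left out, that of Stat2 without AOS-14 or AOS-16 (limma adjusted p = 0.0643 and 0.0615), that of Stat5b without A129-2 or AOS-14 (0.101 and 0.0704) and that of Stat6 without AOS-14 (0.0700). Stat5a was not called (0.78), though it passed on values of equal total (1.47, limma adjusted p = 0.00948).

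Socs3 and Socs2 were also the 2 highest members of the SOCS family in all 3 AG-haESC libraries. The next was Socs6, which acts on receptor tyrosine kinases, at 11.3, 14.7 and 8.54 FPKM in AG-haESCs, 0.213 in round sperm and 11.3 and 10.9 in ESC XX, where it was above Socs2. It rose by 3.34 ± 0.36 relative to round sperm (limma, adjusted p = 0.00914). Round sperm had another order, led by Socs7 at 50.4 FPKM and Socs5 at 8.61, and both fell in AG-haESCs (-2.96 and -2.18, limma adjusted p = 0.00117 and 0.0281). The Socs5 call was lost under all 3 other scalings, at -1.43 on values of equal total (limma adjusted p = 0.165). It was also lost with a pseudocount of 0.1 (-2.89) and without A129-2 (-2.36) or AOS-16 (-2.23). Socs1, Socs4 and Cish were not called, and Socs1, at 0.94 with an adjusted p of 0.0499 (limma), missed the limit on size. Socs1 and Socs4 were called under all 3 other scalings, at 1.86 and 1.65 on values of equal total (limma adjusted p = 0.0268 and 0.00702). None of these 6 was set apart from ESC XX, against 14.7% of all genes, and their differences ran from -0.88 for Socs5 to 0.46 for Socs4. Socs5 was set apart as lower with a pseudocount of 0.1 (-1.22) and without A129-2 (-1.08).

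Pim2, the X-linked kinase of the PIM family, was at 17.0, 22.6 and 41.6 FPKM in AG-haESCs, against 5.73 and 5.79 in ESC XX and 2.49 in round sperm. It was set apart from ESC XX by 1.95 ± 0.69, more than Pim3, and all 3 lines passed 1.5. It rose by 2.91 ± 0.63 relative to round sperm (limma, adjusted p = 0.0372), and leaving out A129-2 or AOS-14 ended the call (limma adjusted p = 0.0616 and 0.130). All 3 PIM kinases were thus above both ESC XX libraries in every line. Gbx1, the paralog of Gbx2, stayed at or under 0.366 FPKM in all libraries and entered no comparison.

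**Figure D4:**
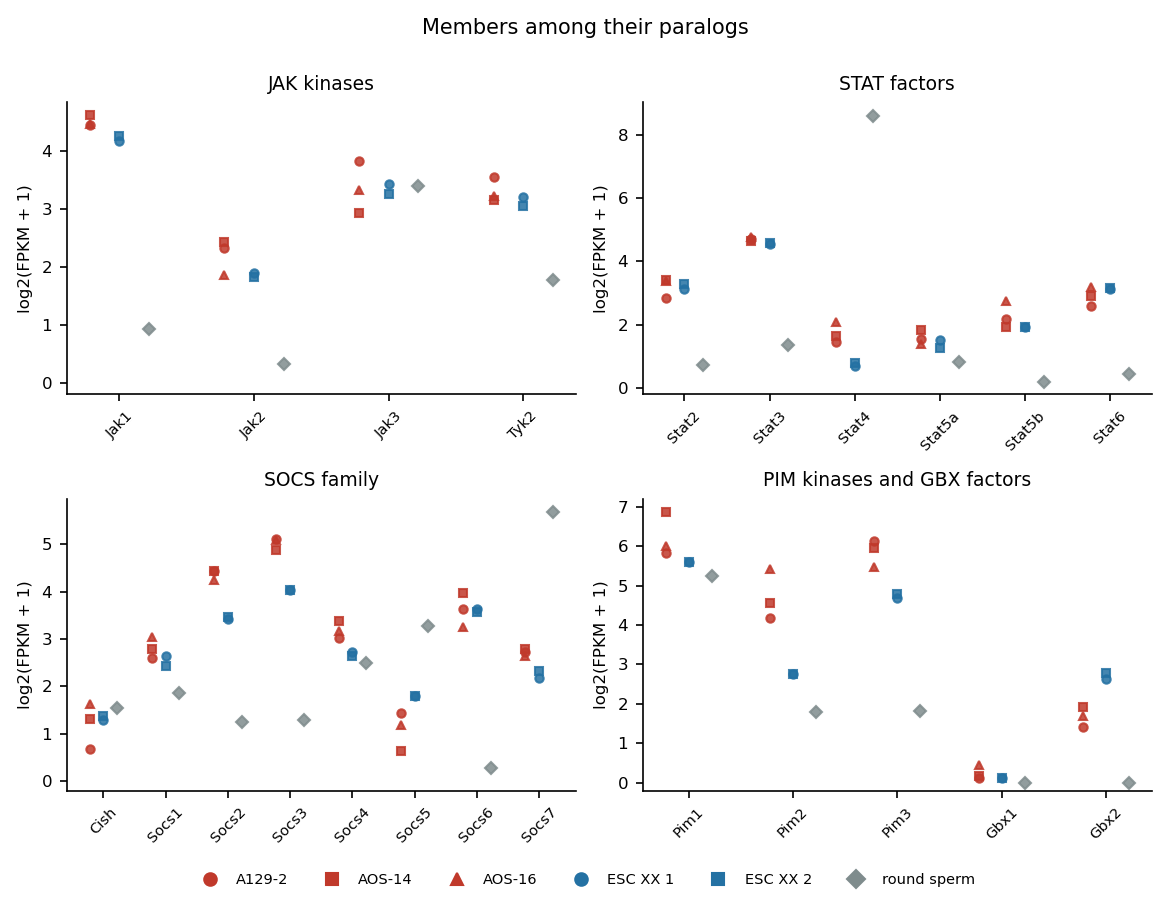
Levels as log2(FPKM + 1) (vertical axes) of JAK, STAT, SOCS, PIM and GBX genes; each point is 1 library, with AG-haESC, ESC XX and round sperm from left to right for each gene. Jak1 and Stat3 lead their families in the stem cells, Stat4 (389 FPKM) and Socs7 (50.4 FPKM) lead in round sperm, and Pim2 is higher in all 3 AG-haESC lines than in ESC XX.

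Of the 55 other genes of the pathway, 48 were tested against round sperm, with a median of 0.97. Of these 20 rose and 9 fell, against 22.8% and 39.1% of all genes tested. The count that rose was 9 without AOS-14 and 12 without AOS-16. Against ESC XX, 53 were compared, with a median of -0.09. Of those, 3 were set apart as higher, against 6.93% of all genes, and 10 as lower, against 7.82%. Without AOS-16, 1 was set apart as higher. The 10 lower genes included 5 of 9 ligands of the IL-6 family (Il6, Il11, Cntf, Ctf2 and Clcf1), the receptor chain Osmr and 4 of 12 further STAT3 targets (Myc, Sp5, Pramel7 and Cebpd). Il11, Cntf, Ctf2, Clcf1, Sp5, Pramel7 and Cebpd were named after their values were seen. Il6, an inflammatory cytokine, was listed at 0 in A129-2 and at 0.229 and 0.102 FPKM in the AOS lines, against 2.54 and 2.69 in ESC XX. Osmr, the oncostatin M receptor chain that pairs with gp130, was at 0.0469, 0.163 and 0.221 FPKM in AG-haESCs, against 3.17 and 3.52. Summed fibroblast markers were 139 to 286 FPKM in AG-haESCs against 1218 and 1217 in ESC XX, and their part in these ligand and receptor differences was not tested.

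Lif itself, the ligand of LIFR, was at 3.09, 2.13 and 2.74 FPKM in AG-haESCs and at 2.54 and 2.51 in ESC XX, a difference of -0.0037 ± 0.42. It was at 0.0481 FPKM in round sperm, about the value of 1 fragment, and rose by 1.79 ± 0.20 (limma, adjusted p = 0.00941), a call lost without AOS-16 (adjusted p = 0.0539). Cntfr, the receptor of ciliary neurotrophic factor, was set apart from ESC XX as higher (1.40 ± 1.15) with the lines at 1.57, 0.18 and 2.46, and not without AOS-16 (0.91), with no filter on low values (1.35) or with the median difference kept.

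Between receptor and nucleus, 4 of 5 adaptor genes rose relative to round sperm, against 22.8% of all genes tested. None of the 5 was set apart from ESC XX, where 14.7% of all genes were. Grb2, an adaptor that links receptors to RAS, was at 55.1, 54.1 and 51.5 FPKM in AG-haESCs against 1.07 in round sperm, and rose by 4.72 ± 0.10 (limma, adjusted p = 0.000320). Among 7 PIAS and phosphatase genes, which restrain STATs and JAKs, 2 rose and 4 fell relative to round sperm. The shares over all genes tested were 22.8% and 39.1%. Pias1 was at 6.77, 10.1 and 8.90 FPKM in AG-haESCs, against 189 in round sperm, and fell by 4.33 (limma, adjusted p = 0.00313). Pias3, the inhibitor named for STAT3, rose by 3.06 ± 0.33 (limma, adjusted p = 0.00870).

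Of 12 further genes known as STAT3 targets, 11 were tested against round sperm and 5 rose, against 22.8% of all genes tested. Cebpb, a factor of the acute phase response, rose by 3.85 ± 0.81 (limma, adjusted p = 0.0347), a call lost without AOS-14 or AOS-16 (adjusted p = 0.128 and 0.0992). Myc was at 1.08, 0.253 and 0.547 FPKM in AG-haESCs, against 15.4 and 14.5 in ESC XX, a difference of -3.80 ± 0.60, and was listed at 0 in round sperm. Gbx2 and Myc were thus both set apart as lower in AG-haESCs than in ESC XX. Pim3 was set apart as higher, and Socs3 was higher in all lines but inside the limit. Of the 12 further targets 4 were set apart as lower, none as higher, and 8 were not set apart.

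The genes whose pattern over the 6 libraries was most like that of Stat3 were Rpsa, a ribosomal protein, Pcmtd1 and Slc25a36, a mitochondrial carrier, with a root mean square difference of 0.0692, 0.0838 and 0.0864 in log2(TPM + 1) after each gene was centred on its mean. For Socs3 they were Mmgt1, Tfe3, a transcription factor, and Cnih4, at 0.0804, 0.0858 and 0.104. The search covered 14946 genes, and likeness over 6 libraries is a description of levels.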

How the data were processed

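Messenger RNA was read from 3 AG-haESC, 2 ESC XX and 1 round sperm libraries, prepared with a stranded mRNA kit from KAPA per the labels' protocols. The deposited values were read as FPKM: the ESC XX files name the unit, and for the other table it was inferred from Cuffdiff 2.2.1, named beside TopHat2 2.0.13 and mm9 in the submitters' processing notes. How the tools were set, and how libraries were scaled to each other, is not given in the sources used here.

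Values were compared with limma 3.58.1 in R 4.3.3 and with pandas 2.3.3 in Python 3.11.15, using a pseudocount of 1 and a filter of 1 FPKM or TPM in at least 1 library. The limma steps were tested on simulated data. With 3 libraries against 1, p-values measure only the spread between the 3 lines. Depth was estimated from 3419 genes with 1 annotated transcript of at least 800 nt, taking off 200 nt for the fragment, and is approximate; fragments were not recovered gene by gene. By that estimate the ESC XX pair differed by 1.18 times the chance chi-square at 10 to 100 fragments per gene and by 1.36 times at 100 to 1000, against 5.77 to 12.6 and 19.1 to 50.0 for AG-haESC pairs, so the pair was kept as 2 but its spread may be technical. Transcript lengths (GENCODE M21, GRCm38) were found for 94.6% of symbols. A gene listed at exactly 0 may be a failed estimate.

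The members and lists were chosen with earlier results of these data known. The text names all 9 members, all JAK, STAT, SOCS, PIM and GBX paralogs, the gene with the largest called difference per pathway list, direction and group comparison, and the 3 genes most like Stat3 and Socs3. Some genes that this rule names are not reported here. Alternatives were another pseudocount, no filter, other scalings, no trend and leaving out each library.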

Additional observations from a re-analysis of the deposited data

How the results depend on the processing

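Against round sperm 7 members rose; the count was 9 under the 3 other scalings, 5 to 7 with a line left out and 7 under the other alternatives, and none fell in any of the 9. Jak1, Stat3, Socs2, Socs3 and Pim3 were called in all 9. Il6st and Gbx2 lost calls as given above, and Lifr and Pim1 gained them under the 3 other scalings. There the all-gene median was 0.42 to 0.49, against -0.49, and 50.9% to 52.5% of calls were higher, against 36.8%. Summed FPKM as deposited was larger in round sperm than in any line, and why it was larger was not tested. Against ESC XX the count of members set apart as lower stayed at 1 in all 11 alternatives. The count set apart as higher was 0 with no filter on low values and 0 with the median difference kept. Leaving out AG-haESC libraries gave 0 to 2, and leaving out ESC XX libraries gave 0 to 1. Pim3 ranged over 0.90 to 1.23 and was set apart in 7 of 11, and Socs3 over 0.83 to 1.05; the cause was not tested. No member was set apart between A129-2 and the AOS lines in any of the 6 alternatives. No paired analysis was possible because the labels match no library of another group to an AG-haESC line. Round sperm has 1 library, and the ESC XX numbers match no other group. Depth limits genes that stood under 3 FPKM in AG-haESCs, among them Gbx2, Myc, Il6 and Osmr.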
